A study of Bos taurus with 50 samples.

Results

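The genes described here are 40 members of cytoskeletal and ciliary families, followed in the endometrium of first-lactation dairy cows at 5 and 9 weeks after calving. They were the genes with a matching family symbol (myosins, myosin light chains, tropomyosins, actin and actin-binding proteins, keratins, tubulins, kinesins, dyneins, intraflagellar transport proteins and the like) in the lists of differentially expressed genes (DEG) that accompanied the study. Those lists served only to pair Ensembl identifiers with symbols, and 2321 genes in them had a symbol out of the 18830 genes in the count table. The members were thus selected on expression values of libraries among these, namely the differences between groups and weeks and the relation to the microbiota. Of the 40, 16 had been listed for CycW5 against NoCycW5 at week 5, 1 (ACTRT3) for the same comparison at week 9, 18 for week 9 against week 5 in NoCycW5 cows, 4 for week 9 against week 5 in CycW5 cows, and 8 only for their relation to principal components (PC) of the uterine microbiota, with some genes on more than 1 list. In the comparisons a gene was listed for, or that share libraries with them, the values below are therefore a description.

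Actin filaments and their myosin motors shape the apical surface of uterine epithelial cells and carry tension in stromal and muscle cells. Keratins are the intermediate filaments of epithelia, with KRT8 typical of simple epithelium and KRT5 of the basal layer of stratified epithelium. Microtubules, built from alpha and beta tubulin, are the tracks along which kinesins and dyneins move cargo, and they also form the axoneme of cilia, which is built and maintained by intraflagellar transport. The epithelium lining the uterus is remodelled over the oestrous cycle under oestradiol and progesterone (P4), including its microvilli and ciliated cells, and the whole uterus shrinks and repairs itself after calving.

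The biopsies were taken from lactating Holstein x Jersey cows in their first lactation. Of 6 groups, NoCycW5 cows had no corpus luteum at week 5 and P4 below detection through week 5 (12 libraries at week 5, 11 at week 9), and CycW5 cows had a corpus luteum and P4 at week 5 (10 and 10). CycNoP4 cows had resumed cycles, and their week 5 biopsy fell outside the P4 phase (4 and 3), and the study left them out of its own comparisons. After week 5 the cows of every group underwent the same synchronisation of ovulation, with gonadotrophin-releasing hormone, an intravaginal P4 insert and prostaglandin F2 alpha, so that the week 9 biopsy came from the luteal phase of a synchronised cycle. Week and synchronisation therefore cannot be told apart. The study biopsied its cows at both weeks, but nothing in the labels ties a library to a cow. The p-values therefore measure the spread between libraries, and the week changes treat repeated biopsies of a cow as independent. The number in a library's title serves as its name.

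The label of the gene set was only partly borne out by its members. No axonemal dynein with a DNAH or DNAI symbol and no tektin (TEKT) was in the lists, and of 14 markers of ciliated epithelium 0 could be matched. Other structural genes of motile cilia were not searched for. The ciliary part of the set consists of IFT80, a subunit of the intraflagellar transport B complex, together with tubulins that cilia share with every other microtubule. MYOF (myoferlin, a membrane repair protein) and KRTDAP (a secreted keratinocyte protein) entered through their symbols alone. Markers of other cell types could be matched for epithelium (EPCAM, beside KRT8), stroma (PDGFRA), endothelium (CDH5, VWF) and stratified epithelium (DSG3, beside KRT5), and none of the lists for smooth muscle (8 genes), striated muscle (7), leukocytes (5), erythrocytes (2) or dividing cells (4) had a match. Counts are from whole biopsies, in which fewer cells of a type and less RNA per cell cannot be told apart.

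Total counts ran from 21592867 to 32813237 per library. Levels are given as CPM (counts scaled to a common library size) after TMM scaling, which sets libraries but not genes on a common scale, so no level is compared between genes. Changes are log2 fold changes ± standard error (SE) from edgeR's quasi-likelihood test, called at a BH P (Benjamini-Hochberg, over all genes tested) of 0.05 or less. The test covered 38 of the 40 members. KRT35, a hair keratin, had 5 reads in all 50 libraries. KRTDAP had 0 reads in the NoCycW5 and CycNoP4 libraries at week 5, which allows up to 0.00872 and 0.0249 CPM, and 23 reads (0.0816 CPM) over the CycW5 libraries at week 5.

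In the week 5 comparison of CycW5 with NoCycW5 cows, which asks how the endometrium differed between cows with and without a corpus luteum, 17 of the 38 members were called, 15 higher and 2 lower in CycW5. The genome-wide share was 26.6% (15.2% higher and 11.4% lower). Of the 15 tested members that had been listed for this comparison 12 were called, against 5 of the 23 others. The 7 tested members known only from the microbiota lists had 0 calls, 1 unadjusted p below 0.05 (KIF26B), 0 calls with DESeq2 and 1 (KIF26B again) with limma-voom. At week 9 the same groups gave 0 called members in edgeR, with 4 unadjusted p-values below 0.05 and 0 calls with DESeq2 or limma-voom, and 0.00646% of all genes.

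From week 5 to week 9, NoCycW5 cows had 25 of 38 members called, 16 higher and 9 lower at week 9, where 35.7% of all genes were called (19.4% higher and 16.3% lower). This comprised each of the 18 members listed for that change. The CycW5 cows had 0 called members by edgeR, where 0.0452% of all genes were called, and 7 unadjusted p-values below 0.05. DESeq2 called 2 members (PDLIM4 and TUBA1A, both lower at week 9), where it called 1.63% of all genes. Limma-voom called 0 members and 0 of all genes. With its quality weights 15 members were called, where 20.5% of all genes were called. A test of the difference between these changes (NoCycW5 minus CycW5) called 9 members, each with a more positive change in NoCycW5, where 7.82% of all genes were called (4.99% more positive and 2.83% more negative). Leaving out libraries 57, 76, 87, 89 and 91, which stood apart for several members, gave a count of 14 (13 more positive and KIF12 more negative). The share of all genes called was then 15.9%. These libraries were picked after the data were seen, from the members' own values, so the raised count is a description. Library 66 was kept, although it was the lowest or highest of its group for 17 members, against 12 for library 57.

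Libraries from CycNoP4 cows had no part in choosing the members. Against NoCycW5 at week 5 they had 10 members called, all 10 higher, where 14.7% of all genes were called (8.87% higher and 5.86% lower), and against CycW5 they had 4 higher and 4 lower, where 17.7% were called (8.70% higher and 9.00% lower). These contrasts reuse the NoCycW5 and CycW5 libraries on which members had been chosen. They rest on 4 libraries: the count of 10 fell to 2 without library 51 and to 1 without library 56, where the share of all genes called also fell, to 0.833% and 2.33%. The count of 8 ran from 3 (without library 58, 11.3% of all genes called) to 13 (without library 52 of CycW5, 19.7%). It was 4 without library 51 (9.15%), 5 without library 56 (10.1%) and 5 without library 13 of CycW5 (14.9%). Limma-voom called 6 in place of 10, beside 11.1% of all genes, and a fit of the compared groups alone called 3 in place of 8, beside 11.5%.

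The change from week 5 to week 9 within CycNoP4 cows shared no library with the lists. It had 16 of 38 members called, 5 higher and 11 lower at week 9, where 19.6% of all genes were called (9.74% higher and 9.85% lower). The median change of the 38 was -0.36, beside -0.02 for all genes. Each of the 18 members listed for the NoCycW5 change moved in the same direction in CycNoP4 cows, and 12 of them were called. Among all 5533 genes called in the NoCycW5 change, 78.4% had the same direction in CycNoP4 cows and 25.7% were called in it. These shares are not like for like, since the 18 came from the study's own shorter list and the 5533 from the test used here. With 4 libraries against 3 the count was sensitive to single libraries, falling to 8 without library 79 and 10 without library 94. The share of all genes called fell with it, to 7.95% and 8.07%.

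**Figure D1:**
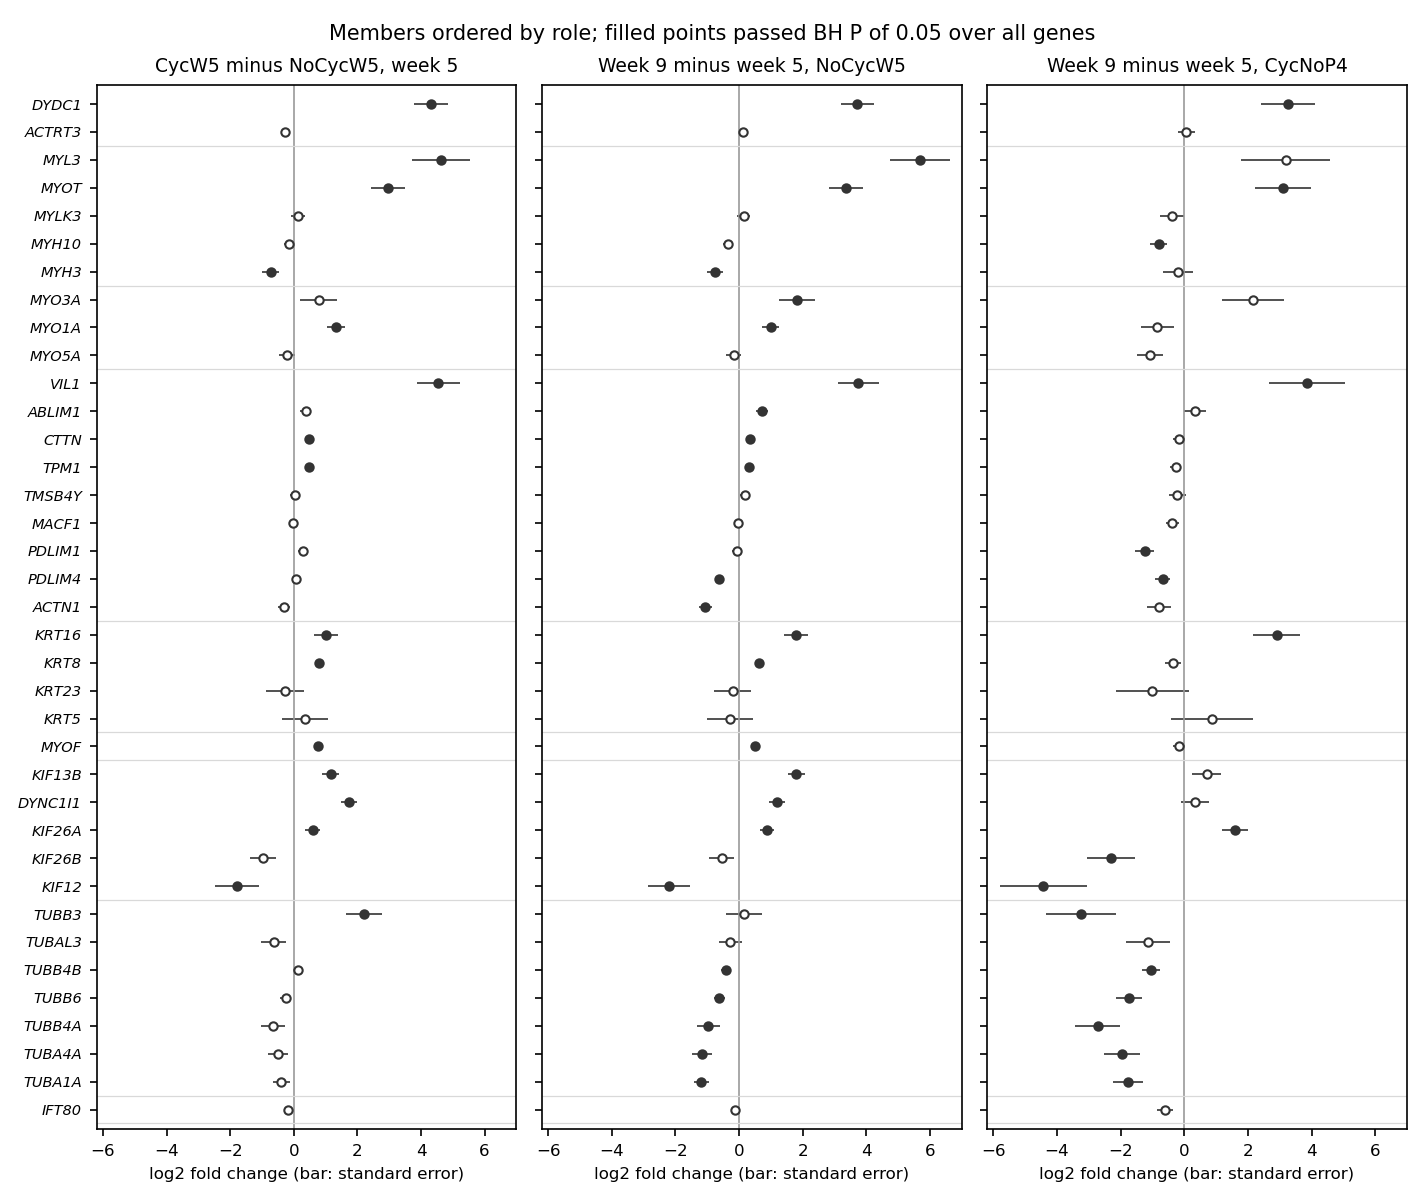
Log2 fold change (x axis, bars: standard error) of 37 tested members, ordered by role, for CycW5 minus NoCycW5 at week 5 and for week 9 minus week 5 in NoCycW5 and in CycNoP4 cows. Filled points passed BH P of 0.05, which were 16, 24 and 16 of those drawn, and 6 of the 7 tubulins at the bottom of the CycNoP4 panel are filled and left of zero.

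DYDC1, which encodes a DPY30-domain protein linked to acrosome formation in sperm, was nearly undetected in NoCycW5 cows at week 5 and present in most other libraries. In NoCycW5 cows at week 5 its lowest, median and highest levels were 0, 0.0979 and 0.504 CPM. In CycW5 cows at week 5 they were 0.132, 3.33 and 5.24 CPM, with library 57 alone below 1.65 CPM and inside the NoCycW5 range. The difference was 4.32 ± 0.52 (BH P 1.91e-07). The 4 CycNoP4 libraries at week 5 had 0.341, 0.231, 0.189 and 0.169 CPM, within the range of the NoCycW5 libraries and apart from CycW5 except library 57 (-3.70 ± 0.72 against CycW5, BH P 0.00159). At week 9 the medians were 2.11 CPM in NoCycW5 (range 0.151 to 4.90) and 1.65 CPM in CycW5 (range 0.244 to 3.82), and the 3 CycNoP4 libraries had 1.98, 1.29 and 3.52 CPM, each above the 4 at week 5. The week change was 3.72 ± 0.51 in NoCycW5 and 3.26 ± 0.84 in CycNoP4 (BH P 0.00861). In CycW5 cows it was not called, and the NoCycW5 change exceeded the CycW5 change by 4.48 ± 0.70 (BH P 0.000331).

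The sarcomere is the contractile unit of striated muscle, and MYL3 and MYOT are 2 of its genes among the members. MYL3, the essential myosin light chain of heart and slow muscle, had a median of 0.136 CPM in NoCycW5 at week 5 and of 14.8 CPM at week 9. The week change in NoCycW5 was 5.68 ± 0.94 (BH P 1.42e-05), although libraries 76 and 91 stayed at 0.145 and 0.151 CPM at week 9. CycW5 libraries at week 5 were spread from 0.122 to 23.97 CPM with a median of 2.87 CPM. In CycNoP4 cows the levels were 0.341, 1.95, 0.302 and 0.541 CPM at week 5 and 7.71, 9.40 and 4.52 CPM at week 9, without overlap, yet the change of 3.18 ± 1.40 missed the threshold (BH P 0.0949).

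MYOT, coding for the Z-disc protein myotilin, was at or below 0.233 CPM in all 12 NoCycW5 libraries at week 5 (median 0.0410 CPM). The CycW5 libraries at week 5 ran from 0.132 to 1.77 CPM (median 0.597 CPM). By week 9 the NoCycW5 libraries had reached a median of 0.912 CPM (range 0.0725 to 1.78), and the CycW5 libraries had 0.729 CPM (range 0.116 to 1.90). The CycNoP4 libraries went from 0.190, 0.330, 0.113 and 0.0338 CPM to 1.71, 1.09 and 1.62 CPM, a change of 3.103 ± 0.89 (BH P 0.0149). In the NoCycW5 and CycNoP4 libraries at week 5 these levels rest on a few reads per library. MYH3, the embryonic skeletal myosin heavy chain, went the other way, from a median of 2.10 CPM (range 0.888 to 6.59) in NoCycW5 to 1.45 CPM (range 0.654 to 2.73) in CycW5 at week 5. That difference of -0.72 ± 0.26 (BH P 0.0339) lay within overlapping ranges and lost its call when single libraries were left out in 9 of 22 fits. MYH10, the heavy chain of non-muscle myosin IIB, was higher in CycNoP4 than in CycW5 cows at week 5 (0.65 ± 0.22, BH P 0.0414) and fell by week 9 in CycNoP4 cows (-0.80 ± 0.27, BH P 0.0303). The first MYH10 call was lost in 8 of 14 fits without a single library and the other without library 51, 79 or 94. Its week changes in the other groups were also negative, and edgeR called neither. Their intervals (95%) ran from -0.72 to -0.12 in CycW5, the change it was listed for, and from -0.63 to -0.06 in NoCycW5. Limma-voom with quality weights called both lower, and DESeq2 the NoCycW5 change. MYLK3, a myosin light chain kinase of heart known here from the microbiota lists, stayed between medians of 2.40 and 3.88 CPM in all 6 groups and was called in none of the comparisons.

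VIL1 encodes villin, which bundles the actin core of microvilli. At week 5 it ran from 0.202 to 2.08 CPM (median 0.541) in NoCycW5 cows and from 1.12 to 31.9 CPM (median 11.1) in CycW5 cows. Libraries 57 and 52 of CycW5, at 1.12 and 1.51 CPM, lay inside the NoCycW5 range and the other 8 above it, and the difference was 4.54 ± 0.67 (BH P 3.1e-06). CycNoP4 libraries at week 5 had 6.86, 0.595, 0.113 and 0.338 CPM, library 51 being the high value, and differed from CycW5 by -3.01 ± 0.93 (BH P 0.0265, lost without library 56 or 58). At week 9 VIL1 had a median of 7.03 CPM in NoCycW5 (range 0.362 to 34.5) and 21.3 CPM in CycW5 (range 1.99 to 147). The CycNoP4 libraries at week 9 had 59.5, 19.9 and 6.07 CPM, a change of 3.85 ± 1.18 (BH P 0.0205) that lost its call without library 56, 58 or 79. The difference of CycW5 from NoCycW5 at week 9, 2.10 ± 0.61, had the smallest unadjusted p of the members there (0.0013), with BH P 0.629.

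**Figure D2:**
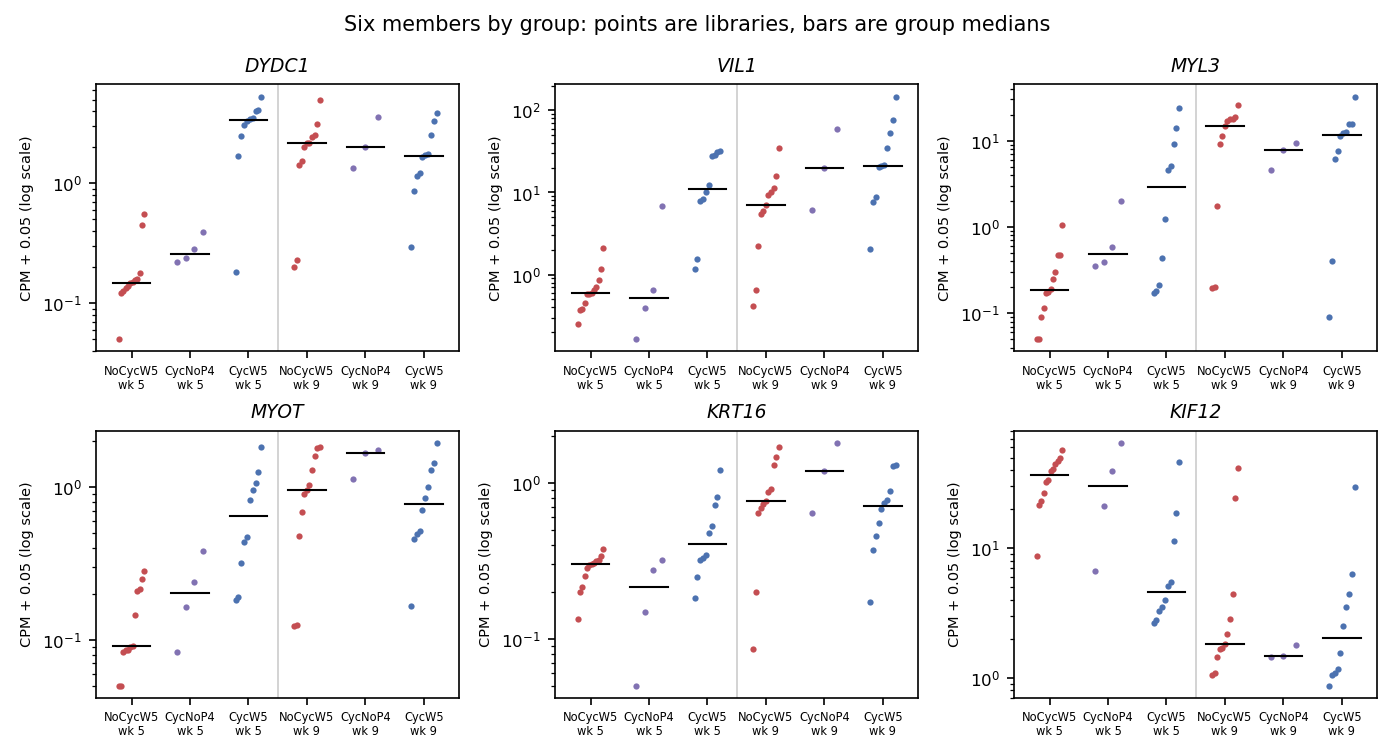
CPM plus 0.05 (y axis, log scale) of DYDC1, VIL1, MYL3, MYOT, KRT16 and KIF12 in each library (points) by group, with week 5 to the left of the grey line, week 9 to the right, and group medians as bars. For DYDC1 the 4 CycNoP4 libraries at week 5 sit at 0.169 to 0.341 CPM, level with NoCycW5, and KIF12 shows the reverse order, with 2 NoCycW5 libraries at week 9 still at 24.4 and 41.7 CPM.

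Of the 17 genes on a list of microvillus and brush border components, 5 could be matched, each of them through the study's own lists. ANKS4B, a scaffold of the links between microvilli, was higher in CycW5 than NoCycW5 at week 5 by 4.79 ± 0.68. EZR (ezrin, which ties actin to the membrane) was higher by 1.59 ± 0.21 and PLS1 (fimbrin-type plastin) by 1.09 ± 0.26, and VIL1 and MYO1A are the other two. EPCAM, the epithelial adhesion molecule, was also higher, by 0.71 ± 0.24 (BH P 0.0234), its medians being 206 CPM in NoCycW5 and 287 CPM in CycW5. It rose by 1.09 ± 0.23 from week 5 to week 9 in NoCycW5, while PDGFRA of stromal fibroblasts was not called in either comparison. In the same NoCycW5 week change VWF fell (-0.62 ± 0.19, BH P 0.00968) and DSG3 rose (1.51 ± 0.37, BH P 0.00179). CDH5, the other endothelial marker, was not called in it (-0.10 ± 0.14, BH P 0.594). The endothelial markers were lower in CycW5 than in NoCycW5 at week 5, CDH5 by -0.43 ± 0.14 (BH P 0.0207) and VWF by -0.80 ± 0.20 (BH P 0.00218). The part of the cell makeup of the biopsy in the differences of these genes was not tested. In CycNoP4 cows at week 5 EZR (1.64 ± 0.34, BH P 0.00637) and PLS1 (1.60 ± 0.23, BH P 0.00108) were already higher than in NoCycW5. For EZR the CycNoP4 libraries had 234, 311, 644 and 1875 CPM, library 51 being the high value. The lower values lay within the NoCycW5 range of 200 to 314 CPM. For PLS1 they had 77.8 to 144 CPM, above the NoCycW5 range of 17.2 to 49.8 CPM. Neither EZR nor PLS1 was called against CycW5. ANKS4B was lower in CycNoP4 than in CycW5 (-2.96 ± 0.78, BH P 0.0107). In the CycNoP4 week change EPCAM was not called (0.15 ± 0.42), and neither were EZR (0.32 ± 0.45), PLS1 (-0.91 ± 0.46) and ANKS4B (2.47 ± 1.08). VIL1 was called in that change, and whether it differed from ANKS4B was not tested.

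MYO1A, the brush border class I myosin, was higher in CycW5 than in NoCycW5 cows at week 5 (1.34 ± 0.28, BH P 0.000491), with medians of 31.7 and 11.6 CPM. It was also higher in CycNoP4 than in NoCycW5 (1.02 ± 0.34, BH P 0.0444, lost with limma-voom, no filter, all 6 groups in 1 fit or the compared groups alone), with library 58 at 7.39 CPM below the NoCycW5 median and the other 3 between 22.6 and 43.5 CPM. MYO3A, a myosin of stereocilia and filopodia tips, rose in NoCycW5 from a median of 0.232 to 0.774 CPM (1.83 ± 0.56, BH P 0.01). MYO5A, the vesicle-carrying class V myosin from the microbiota lists, was called in none of the comparisons.

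Of the 9 actin-binding members, 3 (VIL1, CTTN and TPM1) were called between CycW5 and NoCycW5 at week 5, beside 26.6% of all genes. CTTN, cortactin, which stabilises branched actin, had 166, 192 and 239 CPM (lowest, median, highest) in NoCycW5 and 198, 274 and 341 CPM in CycW5. The difference was 0.48 ± 0.09 (BH P 6.99e-05), and all 10 CycW5 libraries were above the NoCycW5 median. In CycNoP4 cows at week 5 CTTN had 393, 296, 235 and 192 CPM (0.53 ± 0.13 against NoCycW5, BH P 0.0143), and at week 9 264, 240 and 242 CPM. Library 89 of CycW5 at week 9, at 154 CPM, stood below the other 9 of its group, whose highest value was 311 CPM. The product of TPM1, annotated as a tropomyosin alpha-3 chain, lies along the actin filament. TPM1 differed by 0.48 ± 0.09 between CycW5 and NoCycW5, with medians of 324 and 238 CPM, and by 0.51 ± 0.14 between CycNoP4 and NoCycW5 (BH P 0.0243). Neither gene differed detectably between CycNoP4 and CycW5 at week 5, with intervals of the difference (95%) from -0.24 to 0.30 for CTTN and from -0.28 to 0.32 for TPM1.

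The alpha-actinin ACTN1, which cross-links actin at focal adhesions, fell in NoCycW5 from 174, 271 and 718 CPM (lowest, median, highest) at week 5 to 120, 150 and 196 CPM at week 9. The change was -1.06 ± 0.19 (BH P 5.01e-05), and all 11 libraries at week 9 lay below the week 5 median. In CycNoP4 cows ACTN1 went from 681, 288, 453 and 187 CPM to 156, 337 and 201 CPM, which overlapped and was not called (-0.80 ± 0.38, BH P 0.118). PDLIM4, a PDZ and LIM protein that binds alpha-actinin, fell from 39.8, 57.0 and 84.6 CPM to 27.9, 34.7 and 53.7 CPM in NoCycW5 (-0.63 ± 0.13, BH P 0.000185). In CycNoP4 cows it fell from 58.6 to 76.4 CPM at week 5 to 34.2, 48.8 and 39.2 CPM at week 9 (-0.68 ± 0.23, BH P 0.0304), a call lost without library 51, 79 or 94. Its relative PDLIM1 fell in the CycNoP4 week change, from 232, 176, 112 and 147 CPM to 64.3, 80.9 and 66.7 CPM (-1.24 ± 0.30, BH P 0.00654), and it was higher in CycNoP4 than in NoCycW5 at week 5 (0.78 ± 0.21, BH P 0.0205). In the CycW5 week change PDLIM1 was called lower by limma-voom with quality weights and not by edgeR, and the difference between these changes was not tested. ABLIM1, a LIM protein of the actin cytoskeleton, rose in NoCycW5 (0.71 ± 0.18, BH P 0.00257), from a median of 35.3 to 57.2 CPM. MACF1, which links actin to microtubules, and TMSB4Y, annotated as the Y-linked thymosin beta 4 that sequesters actin monomers, were not called in any comparison, and the reads given to TMSB4Y in these cows may come from a near-identical thymosin copy. MYOF, with 320 CPM in NoCycW5 (range 262 to 375) and 576 CPM in CycW5 (range 368 to 672) at week 5, differed by 0.75 ± 0.10 (BH P 1.2e-06). Its NoCycW5 week change exceeded that of CycW5 by 0.81 ± 0.15 (BH P 0.0011), with week 9 medians of 464 and 433 CPM.

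Among keratins, KRT8 had 66.5, 98.5 and 123 CPM (lowest, median, highest) in NoCycW5 at week 5 and 109, 170 and 214 CPM in CycW5. The difference was 0.78 ± 0.12 (BH P 4.71e-06) with a narrow overlap. CycNoP4 libraries had 203, 258, 96.4 and 180 CPM, of which library 58 alone lay within the NoCycW5 range (0.93 ± 0.17, BH P 0.0033). Library 58 also had the lowest MYO1A of the CycNoP4 libraries. At week 9 NoCycW5 cows had a median of 153 CPM (range 110 to 193), CycNoP4 cows had 185, 120 and 128 CPM, and CycW5 cows had 161 CPM (range 84.5 to 203), with library 89 standing low. KRT8 did not change detectably in CycNoP4 cows between weeks (-0.36 ± 0.24, BH P 0.289). EPCAM in CycNoP4 at week 5, at 281 to 539 CPM, differed from NoCycW5 by 0.88 ± 0.31, which missed the threshold (BH P 0.051).

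KRT16, a keratin of wounded and stressed epithelium, was at or below 0.324 CPM in each NoCycW5 library at week 5 and had a median of 0.709 CPM (range 0.0362 to 1.63) at week 9 (1.78 ± 0.38, BH P 0.000324). In CycNoP4 cows it went from 0.227, 0.0991, 0 and 0.270 CPM to 1.74, 1.13 and 0.592 CPM (2.91 ± 0.74, BH P 0.00776), and at week 5 it was lower there than in CycW5 (-1.62 ± 0.56, BH P 0.0465, lost with no filter, all 6 groups in 1 fit or the compared groups alone). KRT5 was low, with medians of 0.0860 to 0.604 CPM in the 6 groups and single high libraries, the highest being 4.68 CPM in library 88 of CycNoP4 at week 9, and edgeR did not call it. In the CycW5 week change, for which it had been listed, its edgeR interval (95%) ran from -1.36 to 1.61. Limma-voom with quality weights called it lower there. KRT23, from the microbiota lists, stayed at medians of 0.160 to 0.397 CPM and was not called. DSG3, a desmosomal cadherin of stratified epithelium, was higher in CycW5 than NoCycW5 at week 5 (1.82 ± 0.38).

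**Figure D3:**
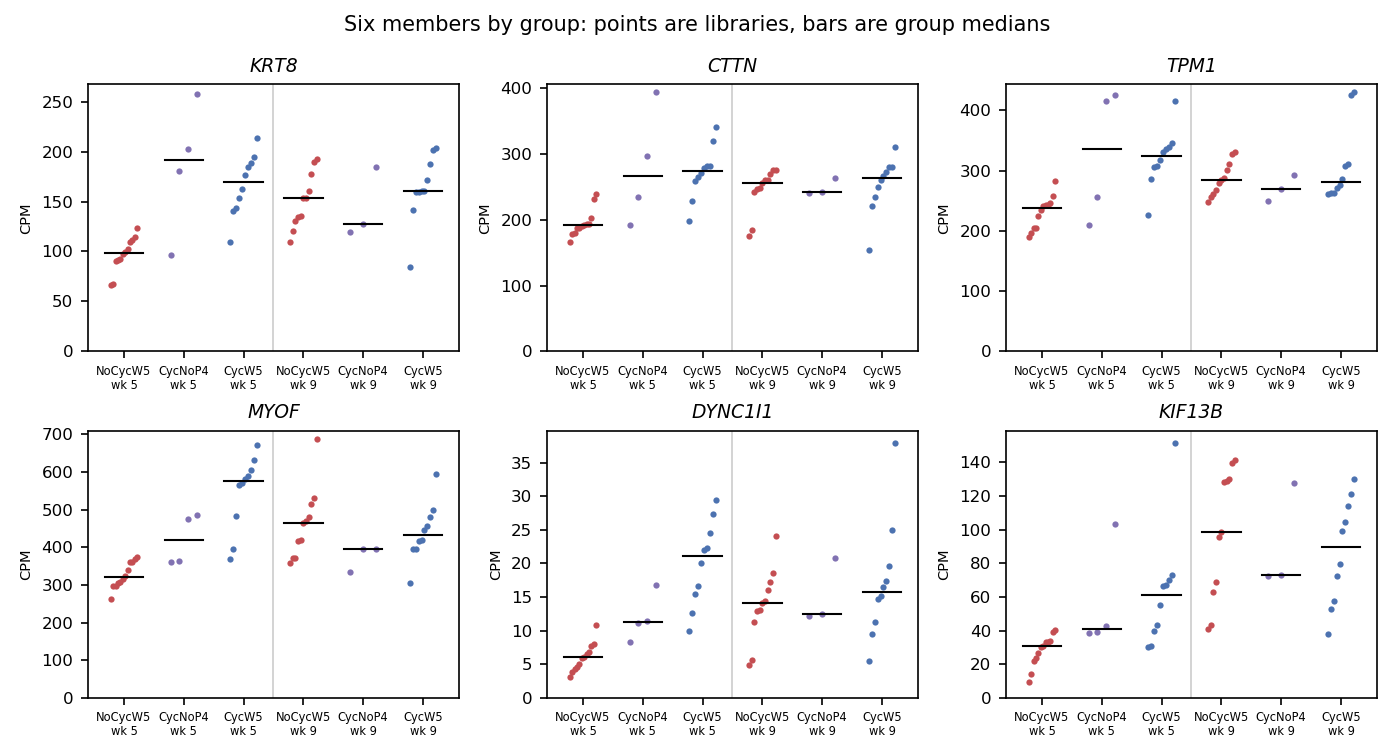
CPM (y axis, linear from 0) of KRT8, CTTN, TPM1, MYOF, DYNC1I1 and KIF13B in each library (points) by group, week 5 left and week 9 right of the grey line, with medians as bars. KRT8 medians at week 5 are 98.5 CPM in NoCycW5, 191 CPM in CycNoP4 and 170 CPM in CycW5, and for KIF13B library 51 of CycNoP4 lies at 103 CPM, apart from the other 3.

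The microtubule motors split by gene. DYNC1I1, an intermediate chain that joins cytoplasmic dynein to its cargo, had 3.07, 6.04 and 10.8 CPM (lowest, median, highest) in NoCycW5 at week 5 and 10.01, 21.1 and 29.5 CPM in CycW5 (1.73 ± 0.25, BH P 2.72e-06). CycNoP4 libraries were intermediate at 16.9, 11.1, 11.4 and 8.35 CPM, above NoCycW5 (0.99 ± 0.26, BH P 0.0197) and below the CycW5 median. The difference from CycW5 was not called (-0.76 ± 0.29, BH P 0.0733). NoCycW5 cows reached a median of 14.1 CPM at week 9. KIF13B, a kinesin that carries cargo to microtubule plus ends, had 9.41, 30.5 and 40.1 CPM in NoCycW5 at week 5 and 41.1, 98.3 and 142 CPM at week 9, without overlap (1.80 ± 0.26, BH P 2.31e-06). CycW5 libraries had a median of 60.9 CPM at week 5 (range 30.1 to 151) and 89.3 CPM at week 9 (range 38.1 to 130). In CycNoP4 cows at week 5 library 51, at 103 CPM, stood apart from 42.6, 38.4 and 39.2 CPM.

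KIF12, a kinesin known from kidney and liver epithelium, had the reverse order of DYDC1. In NoCycW5 at week 5 it had 8.69, 36.7 and 57.3 CPM (lowest, median, highest). In CycW5 at week 5 it had a median of 4.52 CPM, and libraries 57, 52 and 59 were high at 46.3, 18.8 and 11.3 CPM. The difference was -1.79 ± 0.68 (BH P 0.0474), its call was lost in 17 of 22 fits without a single library, and it was -2.50 without library 57. At week 9 the NoCycW5 median was 1.79 CPM with libraries 76 and 91 at 24.4 and 41.7 CPM, and the CycW5 median was 1.98 CPM with library 87 at 29.9 CPM. Libraries 57, 76, 87 and 91 were also at or near the bottom of their groups for DYDC1. CycNoP4 libraries at week 5 had 6.60, 21.1, 39.4 and 64.7 CPM, and at week 9 they were at 1.40, 1.41 and 1.74 CPM, without overlap (-4.44 ± 1.37, BH P 0.021). The call in CycNoP4 cows was lost without library 79, 88 or 94.

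KIF26A and KIF26B are kinesin-like proteins that bind microtubules without moving along them. KIF26A had 51.5 CPM in CycW5 at week 5 (range 30.2 to 101), and CycNoP4 libraries had 17.8, 19.9, 24.1 and 54.6 CPM, library 64 being the high value (-0.97 ± 0.32, BH P 0.0355). In CycNoP4 cows it reached 86.5, 75.4 and 102 CPM at week 9 (1.60 ± 0.42, BH P 0.00914). In NoCycW5 cows the medians were 39.2 CPM at week 5 and 73.9 CPM at week 9 (0.88 ± 0.22, BH P 0.00225). KIF26B had been listed only for the microbiota, so that neither cyclicity nor week had chosen it. It had 4.25, 2.94, 7.39 and 4.53 CPM in CycNoP4 cows at week 5 and a median of 1.17 CPM in CycW5 (range 0.388 to 4.81). That difference was 1.58 ± 0.48 (BH P 0.0246, lost with the compared groups alone). NoCycW5 libraries at week 5 had a median of 2.69 CPM (range 1.20 to 7.18). Neither other group differed from NoCycW5 with a call. The intervals (95%) ran from -0.29 to 1.57 for CycNoP4 and from -1.77 to -0.15 for CycW5. At week 9 the CycNoP4 libraries had 0.921, 1.41 and 0.561 CPM, below all 4 at week 5 (-2.31 ± 0.75, BH P 0.026, lost without library 58, 79 or 94).

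Of the 7 tubulins, 5 (TUBA1A, TUBA4A, TUBB4A, TUBB4B and TUBB6) fell from week 5 to week 9 in NoCycW5 cows, all of them listed for that change, beside 16.3% of all genes. In CycNoP4 cows 6 of 7 fell, these 5 and TUBB3, beside 9.85% of all genes (5 with limma-voom and 4 with the compared groups alone), and TUBAL3 had a negative estimate (-1.15 ± 0.69, BH P 0.228). The median change of the 7 was -1.76 in CycNoP4, -0.62 in NoCycW5 and -0.40 in CycW5 cows. The edgeR test of the difference between the NoCycW5 and CycW5 changes called 0 of the 7. In CycW5 cows 6 of 7 had negative estimates and 0 were called by edgeR (3 unadjusted p-values below 0.05). DESeq2 called 1 (TUBA1A), beside 1.63% of all genes. Limma-voom called 0, and with its quality weights 4 were called, beside 20.5% of all genes. Tubulin genes are close copies of each other, and how reads shared between them were counted was not tested.

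TUBA1A, an alpha tubulin, had 174, 249 and 459 CPM (lowest, median, highest) in NoCycW5 at week 5 and 68.2, 97.3 and 222 CPM at week 9 (-1.18 ± 0.25, BH P 0.000325). CycNoP4 libraries went from 388, 399, 451 and 168 CPM, library 64 standing low, to 67.4, 147 and 98.0 CPM (-1.76 ± 0.47, BH P 0.0103, lost without library 79). CycW5 libraries ran from 77.3 to 420 CPM at week 5 (median 194) and had a median of 89.1 CPM at week 9 with library 87 alone at 261 CPM. TUBA4A fell in CycNoP4 cows from 10.99, 19.3, 12.9 and 12.8 CPM to 3.96, 3.95 and 2.93 CPM (-1.96 ± 0.56, BH P 0.0141, lost without library 94). TUBAL3, an alpha-like tubulin from the microbiota lists, was at or below 1.36 CPM in every library, and library 59 of CycW5 had 0 reads while the other 9 at week 5 had 0.193 to 0.609 CPM.

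TUBB4A, a beta tubulin best known from brain, had 12.9, 38.3, 22.1 and 19.98 CPM in CycNoP4 cows at week 5. Library 51, at 12.9 CPM, lay inside the ranges of both other groups and the other 3 above them. NoCycW5 had 6.66, 10.7 and 17.5 CPM (lowest, median, highest; the difference was 1.12 ± 0.30, BH P 0.0203, lost without library 56), and CycW5 had 3.04, 5.86 and 15.4 CPM (1.76 ± 0.31, BH P 0.000674). Against CycW5 the call held in all 14 fits without a single library. By week 9 the CycNoP4 libraries had 2.49, 2.02 and 6.10 CPM (-2.72 ± 0.70, BH P 0.00841), a call held in all 7 such fits. Library 87 of CycW5 at week 9 stood apart at 32.7 CPM, the others of its group being at or below 7.02 CPM. TUBB6, a broadly expressed beta tubulin, had 332, 116, 80.2 and 50.7 CPM in CycNoP4 cows at week 5, with medians of 73.4 CPM in NoCycW5 (range 44.3 to 138) and 59.8 CPM in CycW5 (range 31.6 to 98.7). Its difference from CycW5 (1.17 ± 0.33, BH P 0.0187) was 0.35 without library 51. From week 5 to week 9 it fell in CycNoP4 cows to 32.7, 61.2 and 36.97 CPM (-1.73 ± 0.41, BH P 0.0052), which was -0.92 without library 51 (BH P 0.0739).

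TUBB4B, a beta tubulin of most cells that is also used in cilia, fell in CycNoP4 cows from 238, 211, 117 and 131 CPM to 75.3, 84.6 and 92.0 CPM (-1.05 ± 0.28, BH P 0.0104, lost without library 79) and in NoCycW5 from a median of 129 to 95.6 CPM (-0.42 ± 0.15, BH P 0.029). TUBB3, the beta tubulin of neurons, was uneven among CycW5 libraries at week 5, with 6 of the 10 between 3.39 and 8.84 CPM, library 13 at 1.20 CPM, and libraries 57, 66 and 70 at 0.329, 0.205 and 0.760 CPM. The NoCycW5 libraries had at most 1.77 CPM (median 0.461), a difference of 2.21 ± 0.57 (BH P 0.00338). CycNoP4 libraries had 2.39, 4.96, 4.60 and 0.575 CPM at week 5 (2.28 ± 0.63 against NoCycW5, BH P 0.0223) and 0.205, 0.363 and 0.405 CPM at week 9 (-3.26 ± 1.11, BH P 0.0334, lost in 6 of 7 fits without a single library). TUBB3 was the tubulin for which CycW5 and CycNoP4 cows lay on the same side of NoCycW5 with a call in both.

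**Figure D4:**
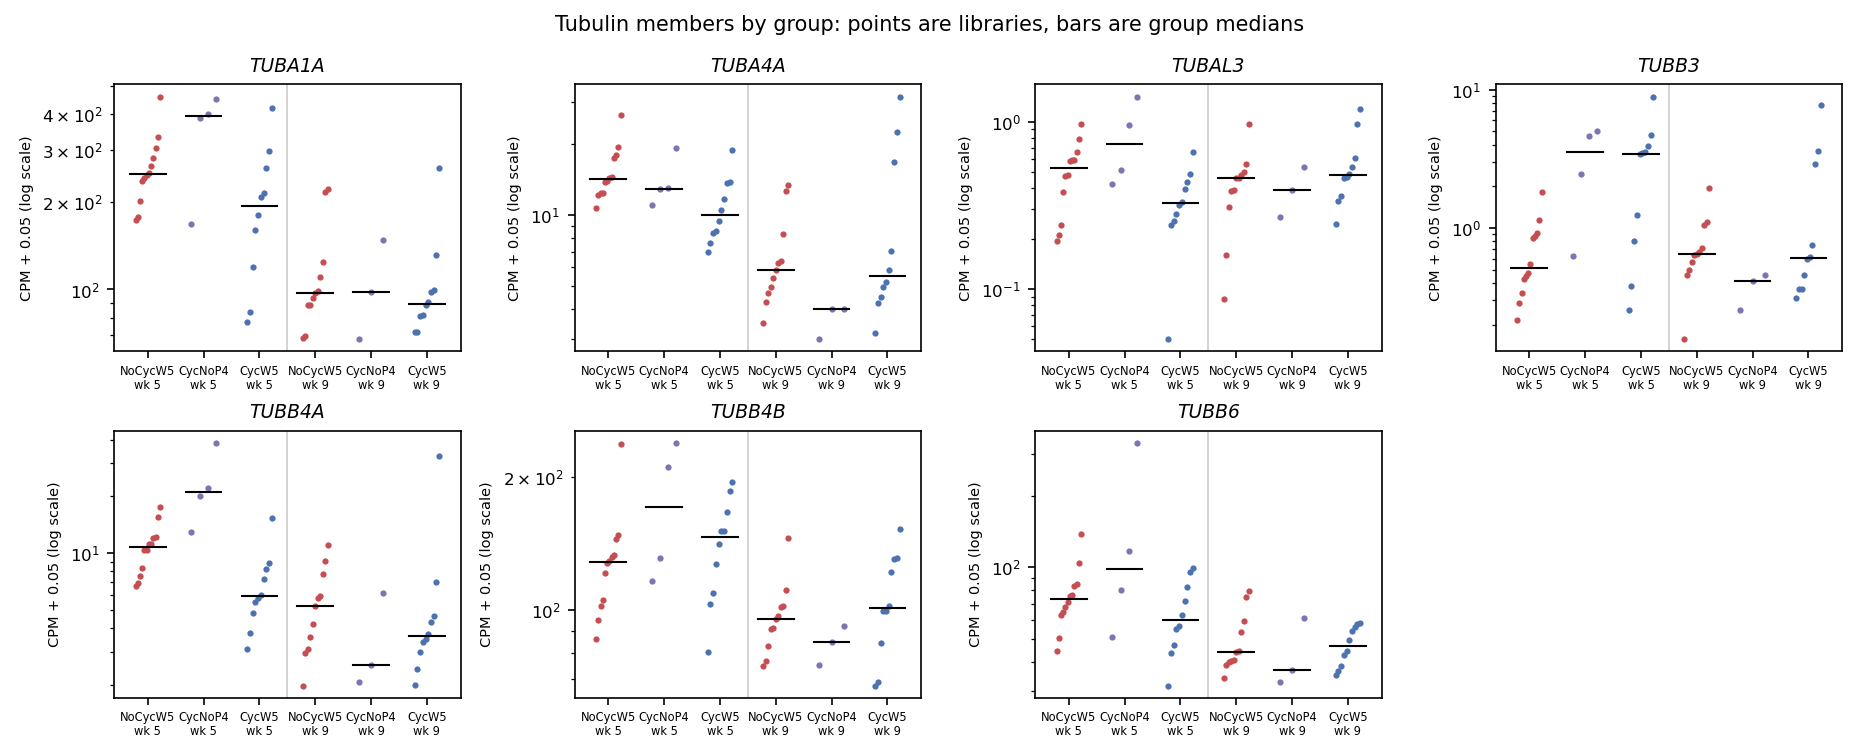
CPM plus 0.05 (y axis, log scale) of the 7 tubulin members in each library (points) by group, week 5 left and week 9 right of the grey line, with medians as bars. The 4 CycNoP4 libraries of TUBB4A at week 5 lie at 12.9 to 38.3 CPM and the 3 at week 9 at 2.02 to 6.10 CPM, and library 87 of CycW5 is the single point at 32.7 CPM.

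For cilia, IFT80 had medians of 18.6 to 27.6 CPM in the 6 groups. It had been listed for the microbiota only and was called by edgeR in none of the comparisons, although its 3 CycNoP4 libraries at week 9 (20.8, 17.8 and 18.7 CPM) lay below the 4 at week 5 (29.3, 36.7, 25.1 and 25.96 CPM), with a change of -0.62 ± 0.25 (BH P 0.0702). Limma-voom with quality weights called that change lower at week 9. Of 24 genes of intraflagellar transport the only other with a symbol in the lists was WDR19, of the A complex. WDR19 rose from week 5 to week 9 by 0.80 ± 0.19 in NoCycW5 (BH P 0.00129) and by 1.37 ± 0.35 in CycNoP4 cows (BH P 0.00798). ACTRT3, an actin-related protein of the sperm head and the only member listed for the week 9 comparison, had 8.10 CPM in NoCycW5 (range 4.97 to 11.3) and 6.43 CPM in CycW5 (range 3.14 to 9.40) at week 9 (-0.32 ± 0.14, unadjusted p 0.0312, BH P 0.76).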

How the data were processed

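Endometrial biopsies from dairy cows had been sequenced as stranded mRNA libraries (75-bp single-end reads). The deposited values are raw counts per Ensembl gene, which the authors made by trimming, aligning to the bovine UMD3.1 assembly with HISAT2 and counting with featureCounts. Being unnormalised, they allow a count model. The submitters' processing notes also name StringTie and edgeR. The 50 libraries fell into 6 groups by the labels, and no 2 libraries agreed within sampling noise. The counts were fitted by edgeR's quasi-likelihood test (version 4.0.16, R version 4.3.3, TMM scaling, default expression filter), with the 43 CycW5 and NoCycW5 libraries in 1 model, the 26 libraries of week 5 in another for the CycNoP4 contrasts, and all 50 in the last for the CycNoP4 week change, which was added after the data were seen. BH P was taken over all genes tested (15483, 15738 and 16120). The study itself had used limma with cow as a random effect and microbiota PC in the model. It kept only CycW5 and NoCycW5 cows with complete microbiota and expression data, so not all of the 43 libraries entered its lists. Simulated data with 200 genes changed by 2 on the log2 scale gave back 92.0% of them for CycW5 against NoCycW5 at week 5 and 85.0% for CycNoP4 against NoCycW5. Smaller changes, which many called members had, were not simulated. The counting precision of CPM is that of 21592867 to 32813237 counts per library. Alternatives were DESeq2 (version 1.42.0), limma-voom (version 3.58.1) with and without quality weights, DESeq2 size factors, no filter or a stricter filter (1 CPM in 10 libraries), other sets of groups in the fit and leaving out each library. Levels are TMM-scaled CPM over all 50 libraries, and intervals are 1.96 SE either side.

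Members, marker lists and tests were chosen with earlier results of these data known. Every member is placed by role, and library values are given first for the 3 members with the smallest BH P in each direction of each comparison and for those with a library standing apart by Dixon's test, with the other members given by ranges and counts or, where a result turned on them, by their values. The reference table used here pairs no Ensembl identifiers with symbols, so family genes outside the study's lists were not analysed, lengths were not used, and no sequence is given. In 3 list entries the symbol had become a spreadsheet date (septins 6, 10 and 11), and these were not counted as members. The values of 1 member are not reported here, although counts over all members include it. Columns of the study's own fold changes and p-values in those lists were not used.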

Additional observations from a re-analysis of the deposited data

Results flagged for a closer look

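Dixon's test was run on log2 CPM (prior count 2) in the groups of 4 and 10 libraries, 114 groups of values for the 38 tested members, of which chance sets apart about 1 in 20. It set apart 8 values, from 6 libraries. In CycW5 at week 9 library 89 was low for CTTN (154 CPM) and KRT8 (84.5 CPM), and library 87 was high for TUBA1A (261 CPM) and TUBB4A (32.7 CPM). In CycW5 at week 5 library 57 was low for DYDC1 (0.132 CPM) and library 59 for TUBAL3 (0 CPM). In CycNoP4 at week 5 library 51 was high for KIF13B (103 CPM) and library 64 low for TUBA1A (168 CPM).

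For 8 members described here the test of the difference itself set the NoCycW5 week change apart from that of CycW5 cows. The difference (NoCycW5 minus CycW5, log2) was 4.48 for DYDC1, 4.72 for MYL3, 3.103 for MYOT, 1.41 for DYNC1I1, 1.32 for KIF13B, 0.81 for MYOF, 0.66 for KRT8 and 0.43 for CTTN. These members had been listed by the study on some of the same libraries. The calls of CTTN and KIF13B were lost in 7 and 1 of 43 fits without a single library. Limma-voom called neither MYL3 nor KIF13B in this test, and with its quality weights it did not call MYL3.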

How the results depend on the processing

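No paired analysis was possible because the labels do not link libraries to cows. The 85 called differences gave 2424 alternative values, of which 2201 kept direction and call, 223 kept direction without the call and 0 reversed. Counts of called members were within 1.5 times of those reported except as follows. For week 9 against week 5 in CycW5 cows, DESeq2 called 2 members and limma-voom with quality weights 15 in place of 0, and leaving out single libraries gave 0 to 2 (1 without libraries 70, 72 or 87, 2 without library 66). The difference of the week changes gave 14 in place of 9 without libraries 57, 76, 87, 89 and 91, an alternative chosen after seeing the data, the additional members being KIF12, KRT16, TPM1, TUBB3 and VIL1. For CycNoP4 against NoCycW5, limma-voom called 6 in place of 10, and leaving out single libraries gave 1 to 13. For CycNoP4 against CycW5, DESeq2 called 14 and the compared groups alone 3 in place of 8, with 3 to 13 without single libraries. For the CycNoP4 week change the range was 8 to 18 around 16. For CycW5 against NoCycW5 at week 5 it was 13 to 17, for the NoCycW5 week change 24 to 26, and for the difference of changes 6 to 11. Over all genes, leaving out single libraries gave 132 to 4981 for CycNoP4 against NoCycW5 (2319 reported), 1451 to 4364 against CycW5 (2786), 1295 to 4525 for the CycNoP4 week change (3158), 795 to 2130 for the difference of changes (1210), 0 to 383 for the CycW5 week change (7), 0 to 5 at week 9 (1), 3344 to 4959 for CycW5 against NoCycW5 at week 5 (4119) and 4928 to 5974 for the NoCycW5 week change (5533). The other alternatives more than 1.5 times away from the reported count were, for the difference of changes (1210 genes), DESeq2 at 1848, limma-voom at 621, its quality weights at 3161 and the fit without those 5 libraries at 2466. For the NoCycW5 week change (5533) and the CycNoP4 week change (3158) the quality weights gave 8562 and 4952. The compared groups alone gave 1231 for the CycNoP4 week change, 904 for CycNoP4 against NoCycW5 (2319, quality weights 3718) and 1771 for CycNoP4 against CycW5 (2786). For the CycW5 week change (7) DESeq2 gave 243, the quality weights 3181, all 6 groups in 1 fit 20, the fit without those 5 libraries 2, and limma-voom, the other size factors, either filter setting and the compared groups alone 0. At week 9 DESeq2 gave 12 in place of 1. The causes were not tested. Members below about 1 CPM (MYOT, KRT16, KRT5, KRT23, MYO3A, TUBAL3) rest on few reads, and 4 or 3 CycNoP4 libraries limit every contrast with that group.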
